A study of Mus musculus with 6 samples.

Results

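Actin cytoskeleton genes encode the protein of the thin filaments that shape a cell, and the proteins that hold, sever, cap and recycle those filaments. The set described here lists 10 genes: the cytoplasmic actins Actb and Actg1, the monomer-binding proteins Tmsb4x, Tmsb10 and Pfn1, the severing and capping proteins Gsn, Capg and Cfl1, the coronin Coro1a, and Arpc1b, a subunit of the Arp2/3 complex. They were selected on their measured ketogenic against chow signals in these same arrays, so their differences are a description, with no p-value, and nothing is read from the counts of them past a threshold. Members were all probe sets that the array annotation assigns to exactly 1 of the symbols. A probe set is a group of short oligonucleotides on the array that reads 1 transcript. Of the 10 genes, 9 had such a probe set, out of 18194 genes on the array with a single symbol, and they were read by 26 probe sets. Arpc1b was not measured here, because its 2 probe sets carry both Arpc1b and Gm5637.

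The study asked how a high-fat, ketogenic diet alters the liver. C57BL/6 mice aged 8 weeks were given standard chow (Labdiet 5008) or a ketogenic diet (F3666) over 6 weeks, and livers were taken in the morning from animals with free access to food. No allele, transgene or drug is named in either group. Liver RNA was hybridised to 6 one-colour Affymetrix arrays, 3 for chow and 3 for the ketogenic diet. Per the labels the RNA came from 2 to 3 animals in a group, with no statement of which animal or pool each array holds, so every p-value measures only the spread between these arrays.

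Actin monomers add to and leave filament ends, and the pool of free monomer is set by thymosins, which hold monomers back, and by profilin, which hands them to growing ends. Cofilin severs old filaments, gelsolin and CapG cap the fast-growing end, and coronins work with cofilin and the Arp2/3 complex at branched networks. In liver, hepatocytes carry actin mainly beneath the membrane and around bile canaliculi. Macrophages, other leukocytes and stellate cells, which crawl, engulf or contract, are rich in this machinery. In whole liver RNA, fewer cells of a type and less RNA per cell cannot be told apart.

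Serum response factor, which senses free actin through its MRTF coactivators, binds a DNA element named the CArG box in many actin genes. That box was searched on both strands of the 250 bases before each RefSeq start site (GRCm38.p6), and 482 of 32851 such windows, 1.47%, held it. Of the members, 8 genes had a window in the promoter table, 13 windows in all, and 1 of the 8, Actg1, had the box. Its window lies at chr11:120348496-120348745 on the minus strand, in the flank upstream of the gene, and the box ends 80 bases before the start site. It is shown whole, 5′ to 3′, with the box in capitals, because it is the single member promoter with a match.
Actg1: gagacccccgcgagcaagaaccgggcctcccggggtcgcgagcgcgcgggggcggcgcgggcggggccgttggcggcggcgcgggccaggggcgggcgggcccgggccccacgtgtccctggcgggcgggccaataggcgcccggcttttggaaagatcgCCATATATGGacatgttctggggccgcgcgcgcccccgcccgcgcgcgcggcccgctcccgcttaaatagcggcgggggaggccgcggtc

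A match says only that these letters lie in the window. For comparison, windows of 30 bases around the box are given for 4 genes of the wider actin machinery that hold it, with the box in capitals and their differences given with the serum response factor genes. They are Srf itself (chr17:46556225-46556254, minus strand), Vcl, which encodes vinculin of cell adhesions (chr14:20929161-20929190, plus strand), Cnn2, an actin-binding calponin (chr10:79988534-79988563, plus strand), and Myl9, a myosin regulatory light chain (chr2:156775293-156775322, plus strand). The Srf box shown ends 72 bases before the start site, and a second Srf box, not shown, ends 52 bases before it.
Srf: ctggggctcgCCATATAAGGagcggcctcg
Vcl: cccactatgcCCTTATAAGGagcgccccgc
Cnn2: cgcttccacgCCTTATAAGGacatttgctc
Myl9: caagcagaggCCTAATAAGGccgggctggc

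Signals are the deposited linear intensities, in array units, and a log2 difference is ketogenic minus chow. A signal under 10.7, the level that 95% of bacterial control probe sets stay under, is called under background; a mean is judged on the log scale. The 2% trimmed mean of all probe sets ran from 39.9 to 53.5 on chow and from 45.8 to 61.0 on ketogenic arrays. The hybridisation controls, RNA added to every array, had means of 642 ± 8.53 for chow against 500 ± 18.4 for ketogenic arrays (SD, n = 3; two-sided exact permutation p = 0.1, the smallest that 3 against 3 arrays allow). Ketogenic array 2 stood apart in skeletal muscle transcripts. A list of 20 muscle genes, put together after the values were seen, summed to 1952.4 on that array and to between 159.7 and 263.7 on the others, and 16 of its genes were highest there. The muscle actin Acta1, which is not a member, read 424.1 on ketogenic array 2 and between 2.7 and 15.4 elsewhere. The members' values without that array are therefore given beside the full ones.

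In the signals as deposited, each of the 9 measured genes was higher on all 3 ketogenic arrays than on all 3 chow arrays, reading each gene by its brightest probe set. The log2 differences ran from 0.27 for Actb to 3.70 for Coro1a, with a median of 1.43, while the median over all 11866 genes tested was 0.235. Of all genes tested, 24.0% had no overlap in that direction. In the limma fit across all genes (Benjamini-Hochberg adjusted p under 0.05), 6 of the 9 passed higher and 0 lower, where 6.52% of all genes passed higher and 0.868% lower; as the members were selected on this contrast, nothing is read from either count. The 6 were Actg1, Gsn, Tmsb4x, Tmsb10, Coro1a and Capg. Without ketogenic array 2 the median was 1.373, and without ketogenic array 3 it was 1.174.

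**Figure D1:**
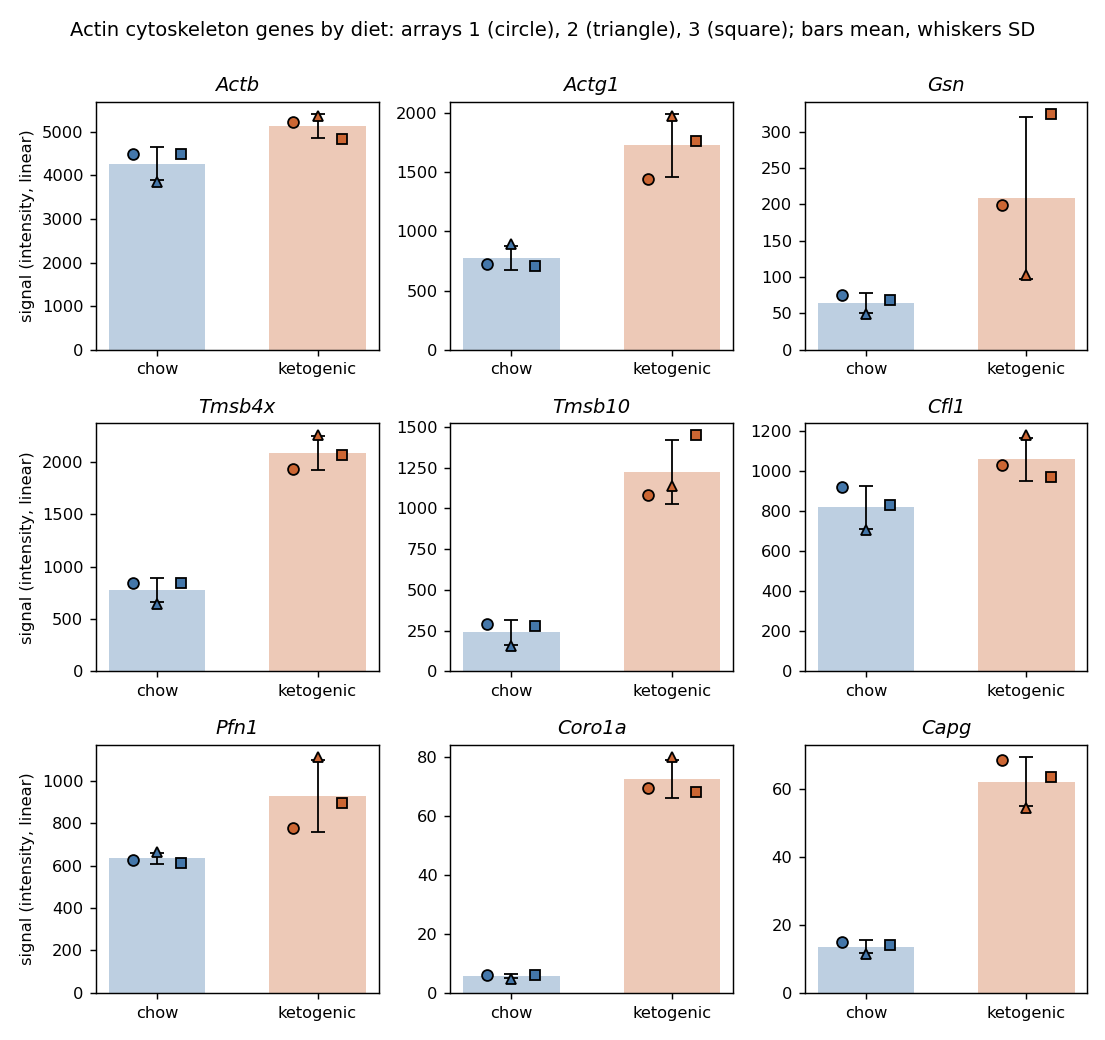
Deposited signal (vertical axis, linear intensity in array units, a separate scale for each gene) of the brightest probe set of the 9 measured actin cytoskeleton genes, by diet on the horizontal axis. Points are arrays, bars are means and whiskers are SD (n = 3); all ketogenic points of each gene lie above its chow points, closely for Actb and Cfl1 and widely for Coro1a.

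Array scaling set how far apart the diets stood for the genes with small differences. When every array was divided by its own 2% trimmed mean, 5 of the 9 genes kept all ketogenic arrays above all chow arrays, against 19.0% of all genes. Actb, Gsn, Cfl1 and Pfn1 then overlapped between diets. No brightest probe set changed sign over the 4 other scalings tried: the log2 difference stayed within 0.06 to 0.63 for Actb, 0.16 to 0.74 for Cfl1 and 0.32 to 0.90 for Pfn1. The genes with large differences moved by similar amounts and stayed far from 0, at 2.18 to 2.75 for Tmsb10, 1.98 to 2.56 for Capg and 3.48 to 4.06 for Coro1a.

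Actb encodes beta-actin, the main nonmuscle actin and a usual loading control. Its brightest probe set (1436722_a_at) read 4487.5, 3834.2 and 4480.8 on chow and 5225.5, 5356.2 and 4828.2 on ketogenic arrays. The diets did not overlap but lay close together, and the means were 4267.5 ± 375 and 5136.6 ± 275 (SD, n = 3), a ratio of 1.2 and a log2 difference of 0.27 ± 0.234 (SE). Without ketogenic array 2 the difference was 0.24. A dimmer Actb probe set (1419734_at) went the other way, at 342.0, 354.2 and 437.8 on chow and 257.9, 298.6 and 234.9 on ketogenic arrays. Its ketogenic mean was 30.2% lower (378 ± 52.1 against 264 ± 32.3, SD, n = 3), a log2 difference of -0.52 ± 0.248 (SE). It was the single member probe set in the fit with all ketogenic arrays below all chow arrays.

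The array also carries 3 Actb control probe sets, placed at the 3′ end, the middle and the 5′ end of the transcript to follow RNA integrity and labelling. The 3′ control read 3877.1, 3133.4 and 3828.4 on chow and 5072.4, 5517.9 and 4930.6 on ketogenic arrays, a ratio of means of 1.43. The middle control gave a ratio of 1.73, from 2154.2 ± 236 to 3716.5 ± 216 (SD, n = 3), and the 5′ control a ratio of 1.88, from 1741.4 ± 199 to 3265.1 ± 146 (SD, n = 3). The difference between diets thus grew from the 3′ to the 5′ end, with no overlap at any of the 3 positions in the deposited signals. On the trimmed-mean scale the 3′ control overlapped and the other controls did not.

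The 3′ to 5′ ratio of the Actb controls was lower on every ketogenic array than on any chow array. It was 2.0, 2.03 and 2.2 on chow and 1.63, 1.63 and 1.49 on ketogenic arrays, with means of 2.08 ± 0.107 and 1.59 ± 0.082 (SD, n = 3), a difference of -0.491. The 3′ to middle ratio was 1.68 ± 0.0872 on chow and 1.39 ± 0.00647 on ketogenic arrays (SD, n = 3). The same ratio for Gapdh, a glycolytic enzyme with its own controls, overlapped, at 0.761 to 0.972 on chow and 0.775 to 0.812 on ketogenic arrays (3′ to 5′). The Gapdh 3′ control itself read 3222.7 ± 86.5 on chow and 3218.2 ± 550 on ketogenic arrays (SD, n = 3). The size of the Actb difference therefore depended on the probe set, from a log2 of -0.52 through 0.27 to 0.91, and the part that RNA integrity or labelling has in this was not tested.

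**Figure D2:**
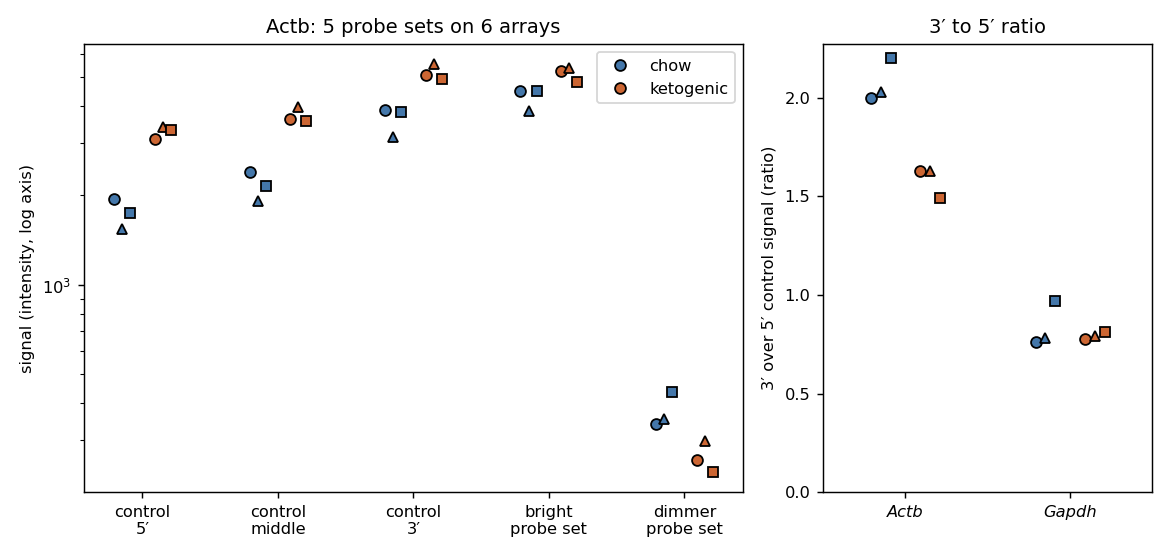
Left, deposited signal (log axis, array units) of the 5 Actb probe sets on the 6 arrays, ordered from the 5′ control to the dimmer probe set; right, the 3′ to 5′ control ratio of Actb and Gapdh (linear axis from 0). Points are arrays; the 3 controls and the bright probe set are higher on ketogenic arrays, the dimmer one is lower, and the Actb ratio averages 2.08 on chow and 1.59 on ketogenic arrays while the Gapdh ratio overlaps.

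Actg1 encodes gamma-actin, the other cytoplasmic actin. Its only probe set (1415779_s_at) read 724.9, 892.7 and 712.0 on chow and 1447.2, 1975.0 and 1765.6 on ketogenic arrays. The diets were well apart, with means of 777 ± 101 and 1729.3 ± 266 (SD, n = 3), a ratio of 2.23 and a log2 difference of 1.15 ± 0.253 (SE). It was 1.05 without ketogenic array 2 and 0.94 to 1.51 over the other scalings. The name of this probe set ends in _s_at, the maker's mark for oligonucleotides that match more than 1 transcript, so related sequences may add to it. This is the gene whose promoter window carries the box printed above.

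The beta-thymosins, small proteins that bind actin monomers and keep them out of filaments, had larger differences. Tmsb4x (1415906_at) read 844.0, 646.3 and 842.4 on chow and 1930.3, 2256.7 and 2070.0 on ketogenic arrays. The lowest ketogenic signal was more than double any chow signal, with means of 778 ± 114 and 2085.7 ± 164 (SD, n = 3), a ratio of 2.68 and a log2 difference of 1.43 ± 0.246 (SE), or 1.37 without ketogenic array 2. Tmsb10 was read by 3 probe sets in the fit. The brightest (1437185_s_at) read 290.0, 153.0 and 278.0 on chow and 1084.0, 1136.3 and 1449.0 on ketogenic arrays, from 240 ± 75.9 to 1223.1 ± 197 (SD, n = 3), a ratio of 5.09 and a log2 difference of 2.39 ± 0.316 (SE), or 2.44 without ketogenic array 2.

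The other Tmsb10 probe sets in the fit went the same way by like amounts. The ratio of means was 4.65 for 1417219_s_at (log2 2.26 ± 0.31, SE) and 6.14 for 1436902_x_at (log2 2.70 ± 0.349, SE), and neither overlapped between diets. A further 2 Tmsb10 probe sets were too dim to enter the fit: 1436682_at and 1455946_x_at had means under background on both diets and overlapped. All 3 Tmsb10 probe sets in the fit carry the _s_at or _x_at mark of possible matches to related sequences. They therefore do not read the gene independently of such copies.

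Pfn1 encodes profilin, which loads monomers onto growing filament ends. Its probe set (1449018_at) read 625.7, 662.5 and 611.7 on chow and 777.5, 1112.8 and 893.6 on ketogenic arrays. The means were 633 ± 26.2 and 928 ± 170 (SD, n = 3), a ratio of 1.47 and a log2 difference of 0.54 ± 0.249 (SE). Ketogenic array 2 was the highest, and without it the difference was 0.40.

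Cfl1 encodes cofilin, which severs ageing filaments and returns monomers to the pool. The brighter probe set (1455138_x_at) read 920.7, 709.0 and 832.1 on chow and 1031.3, 1181.4 and 972.6 on ketogenic arrays, with means of 821 ± 106 and 1061.8 ± 108 (SD, n = 3), a ratio of 1.29 and a log2 difference of 0.38 ± 0.244 (SE). The second one (1448346_at), which carries no mark of shared sequence, read 398.0, 323.8 and 340.5 on chow and 536.0, 629.9 and 524.0 on ketogenic arrays. It had a ratio of 1.59 and a log2 difference of 0.67 ± 0.241 (SE), and its diets stayed apart on the trimmed-mean scale where those of the brighter one overlapped. Without ketogenic array 2 the brighter probe set differed by 0.30.

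Gsn encodes gelsolin, which severs filaments and caps their fast-growing ends, and also has a secreted plasma form. Its brightest probe set (1456312_x_at) read 75.3, 49.0 and 69.1 on chow and 198.7, 103.0 and 324.9 on ketogenic arrays, from 64.5 ± 13.7 to 209 ± 111 (SD, n = 3), a ratio of 3.24 and a log2 difference of 1.57 ± 0.417 (SE). The spread among ketogenic arrays was wide, and the difference was 2.00 without ketogenic array 2 and 1.17 without ketogenic array 3. A second probe set (1415812_at) read 55.5, 50.4 and 48.8 on chow and 178.6, 115.4 and 227.4 on ketogenic arrays, a ratio of 3.37 and a log2 difference of 1.70 ± 0.3 (SE). The other 2 in the fit had ratios of 2.21 (1436991_x_at) and 2.32 (1437171_x_at). Only 1415812_at passed the threshold in the fit of probe sets, so the brightest passed in the fit of genes alone, and nothing is read from either. In all 4, ketogenic array 3 was highest and ketogenic array 2 lowest. The remaining 2, 1456568_at and 1456569_x_at, were too dim to enter the fit and overlapped between diets.

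Capg encodes CapG, a gelsolin relative that caps filament ends without severing them and is known from macrophages. The brighter probe set (1450355_a_at) read 15.1, 11.4 and 14.2 on chow, just above background, and 68.8, 54.4 and 63.8 on ketogenic arrays. The means were 13.6 ± 1.93 and 62.3 ± 7.31 (SD, n = 3), a ratio of 4.59 and a log2 difference of 2.20 ± 0.25 (SE), or 2.30 without ketogenic array 2. The dimmer one (1447803_x_at) read 3.6, 0.9 and 5.0 on chow, under background, and 21.4, 17.3 and 19.0 on ketogenic arrays. Counted from the background level it was at least 1.79-fold higher, and it was too dim over all arrays to enter the fit.

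Coro1a encodes coronin 1A, an actin regulator known chiefly from leukocytes. The brightest probe set (1416246_a_at) read 5.9, 4.8 and 6.1 on chow, all under background, and 69.3, 80.0 and 68.1 on ketogenic arrays. From 5.6 ± 0.7 to 72.5 ± 6.55 (SD, n = 3), the ketogenic mean was at least 6.75-fold above what the chow arrays could show. The fitted log2 difference of 3.70 ± 0.243 (SE) depends on signals under background and was 2.17 when signals were floored at 16. A second probe set (1455269_a_at) read 10, 7.2 and 8.1 on chow, under background, and 21.0, 36.1 and 67.6 on ketogenic arrays, at least 3.47-fold higher. Both were apart between diets, the second with a wide spread among ketogenic arrays. A further one (1435288_at) stayed under background on both diets and overlapped. Without ketogenic array 2 the brightest differed by a log2 of 3.62.

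Of the 17 member probe sets in the fit of probe sets, 16 were higher on all ketogenic arrays and 1, the dimmer Actb one, was lower on all of them. Of the 17, 9 passed the threshold higher, 0 passed lower and 8 did not pass, where 4.08% of all probe sets passed higher; as for the genes, nothing is read from this count. Of the other 9 member probe sets, 6 were too dim and 3 were the Actb controls, which were kept out of the fit. Probe sets of 1 gene share its RNA, so they are not separate observations.

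**Figure D3:**
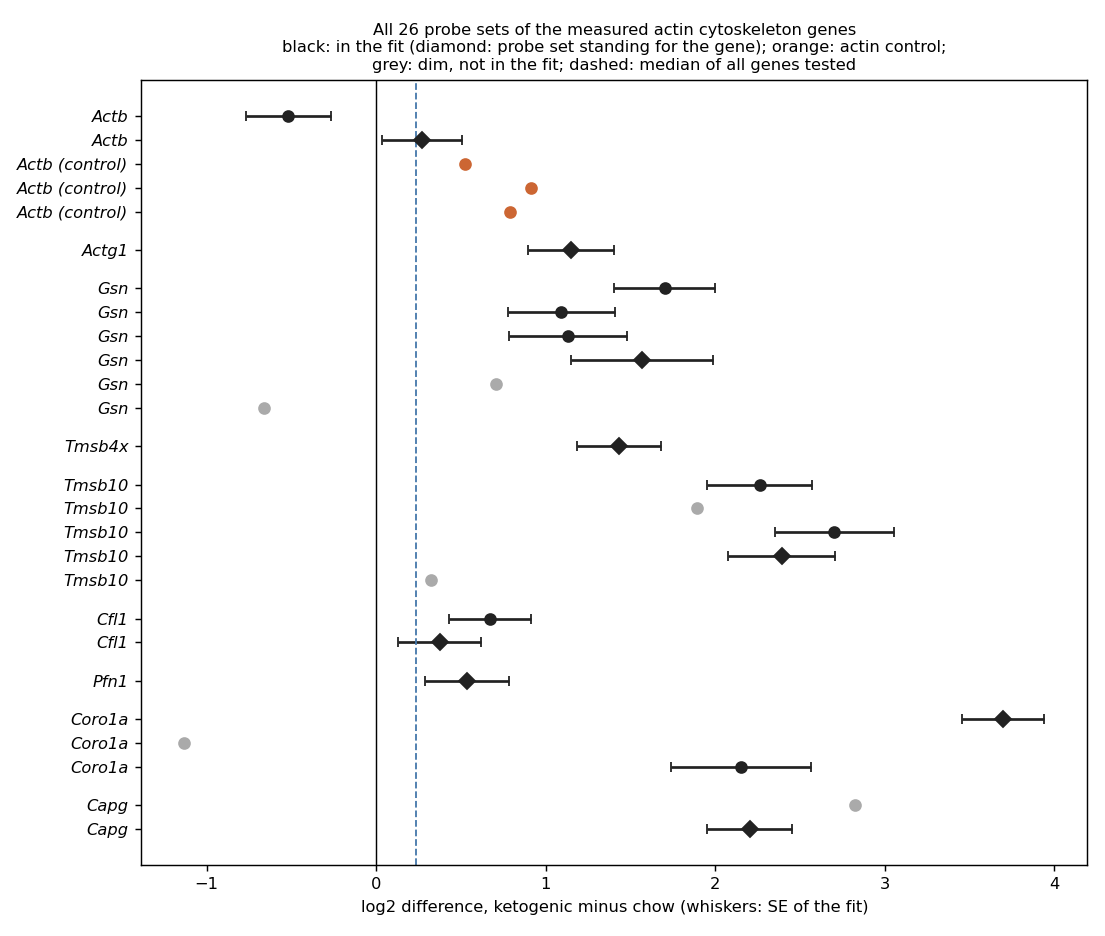
Log2 difference, ketogenic minus chow (horizontal axis), of all 26 member probe sets, grouped by gene. Black points with whiskers (SE of the fit) are the 17 in the fit, with a diamond for the brightest of each gene; orange points are the Actb controls, grey points are too dim for the fit, and the dashed line is the median of all genes, 0.235. Among those in the fit, the probe sets of Tmsb10 and of Gsn all lie above 0 and those of Actb lie on both sides of it; the grey points are scattered from -1.13 to 2.82.

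The wider actin machinery was followed through 13 lists of genes by role, 145 genes in all that exclude the members. Of the 134 genes on the array, 107 entered the fit. Reading each gene by its brightest probe set, 18 of these (16.8%) passed the threshold higher and 0 lower, beside 6.52% and 0.868% of all genes, and 89 did not pass. Of those 89, 10 had another probe set that passed higher in the fit of probe sets. The share of such genes over all genes was not counted. Among the 18, no other probe set passed in that fit for Coro1c, Fermt3, Fscn1, Msn, Myl12a, Myo9b, Sptan1, Tln1, Tpm1 or Wdr1. Flna, Myo1f, Tpm4, Twf2 and Vasp had no other probe set in it. Over the 107 genes the difference was positive for 99 and negative for 8, with a median log2 of 0.50. For 56 of the 107 genes, 52.3% beside 24.0% of all genes, all ketogenic arrays lay above all chow arrays, and 1 gene, Add3, was lower on all of them by its brightest probe set (log2 -0.68, limma adjusted p = 0.234), while its other 3 gave 1.14, 0.39 and 0.56. The count that passed higher was 18 without chow array 1, 7 without chow array 2 and 10 without chow array 3. These were 16.8%, 6.54% and 9.35% of the lists, beside 6.8%, 4.34% and 4.19% of all genes higher. The count was 7 without ketogenic array 1, 6 without ketogenic array 2 and 8 without ketogenic array 3. Those were 6.54%, 5.61% and 7.48% of the lists, beside 3.8%, 3.68% and 3.93% of all genes higher. Of the 18 genes, 12 passed under all 4 other scalings and 5 with each array left out in turn: Fermt3, Msn, Myo1f, Tpm1 and Twf2. Each of the other 13 lost the threshold without at least 1 of the arrays. Twf2 and Myo1f had chow means of 7.17 and 8.43, under the filter signal of 10.2, so their ketogenic signals brought them into the fit. With no filter on low signals both lost the threshold (limma adjusted p = 0.078 and 0.0707).

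Tropomyosins, which lie along filaments and decide which other proteins bind them, had the largest list median, 1.26, and 2 of 4 passed. Tpm1 rose from 36.3 ± 10.5 to 208 ± 34.4 (SD, n = 3), a log2 difference of 2.54 ± 0.278 (SE, limma adjusted p = 0.00166), while its other probe sets gave 3.53 and 0.26. Tpm4 rose by a log2 of 1.46 ± 0.302 (SE, adjusted p = 0.021), with a p of 0.0599 without ketogenic array 2.

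Among linkers of filaments to the membrane and to adhesions, 3 of 11 passed, and the list median was 0.15, under that of all genes. Msn, which encodes moesin, read 74.7, 87.5 and 79.8 on chow and 220.5, 262.0 and 215.9 on ketogenic arrays (log2 1.53 ± 0.227, SE, limma adjusted p = 0.00618). For its relative Ezr, ezrin, the probe sets went opposite ways, the brightest at -1.03 (adjusted p = 0.219) and another at 1.68, which passed in the fit of probe sets (adjusted p = 0.0092). Fermt3, the integrin activator of blood cells, rose by 2.32 ± 0.253 (SE, adjusted p = 0.00166) on a probe set that may match related sequences, and its other probe set gave 0.28. Tln1, talin, rose by 0.96 (adjusted p = 0.0439) and lost the threshold in 10 of 17 alternatives, and its other probe set gave 0.18.

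Of the nonmuscle myosins, the motors that pull on filaments, 4 of 12 passed. Myo1c rose by a log2 of 1.19 (limma adjusted p = 0.0179), with its other 3 probe sets at 1.33 to 1.78, and Myo1f, known from leukocytes, was under background on chow and at least 2.42-fold higher (adjusted p = 0.0121). Myo9b rose by 1.18 (adjusted p = 0.0228) with another probe set at -0.46, and both Myo1c and Myo9b lost the threshold without ketogenic array 2. Of the crosslinkers and bundlers, 4 of 13 passed, with Flna, filamin A, at 1.29 (adjusted p = 0.0141), Actn1, an alpha-actinin, at 1.35 (adjusted p = 0.033) and Fscn1, fascin, at 1.56 (adjusted p = 0.0393). All 3 of these lost the threshold under 2 of the 4 other scalings, and Actn1 and Fscn1 also without ketogenic array 2.

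Closest to the members by role were the lists of their relatives and partners. Of the cofilin and coronin relatives and other turnover genes, 3 of 17 passed: Twf2, Coro1c and Wdr1. Twf2, twinfilin, had chow signals of 11.4, 5.9 and 4.2, a mean under background, and was at least 2.77-fold higher (log2 2.21, limma adjusted p = 0.0111). Coro1c rose by a log2 of 1.29 (adjusted p = 0.0187) and Wdr1, a cofilin partner, by 1.12 (adjusted p = 0.028). Coro1c and Wdr1 lost the threshold without ketogenic array 2, and the other Coro1c probe sets gave 0.98 and -0.02. Among formins and Ena/VASP proteins 1 of 10 passed, Vasp at 1.26 (adjusted p = 0.0232), and among capping proteins 1 of 9, Eps8 at 1.27 (adjusted p = 0.0266), both lost without ketogenic array 2.

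No gene passed by its brightest probe set in the other 6 lists. The remaining Arp2/3 subunits had 0 of 6, with Arpc2, the brightest, at 0.44 (limma adjusted p = 0.315), and the Arp2/3 activators and WAVE complex 0 of 13, with Nckap1 at 0.19 (adjusted p = 0.637). In that second list Nckap1l, Wipf1 and Wasf2 each had another probe set that passed higher, at 3.39, 1.49 and 1.10 (adjusted p = 0.00179, 0.022 and 0.0415 in the fit of probe sets). The other gelsolin family members had 0 of 3, with Flii at 0.62 (adjusted p = 0.158), and of the other profilins and thymosins only Pfn2 was bright enough to test, at 0.67 (adjusted p = 0.231). The other actins had 0 of 4, with Actr1a, an actin-related protein of dynactin, at 0.39 (adjusted p = 0.425), and the smooth muscle actin Acta2 differed by 0.05. A difference between these lists and the members was not tested.

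**Figure D4:**
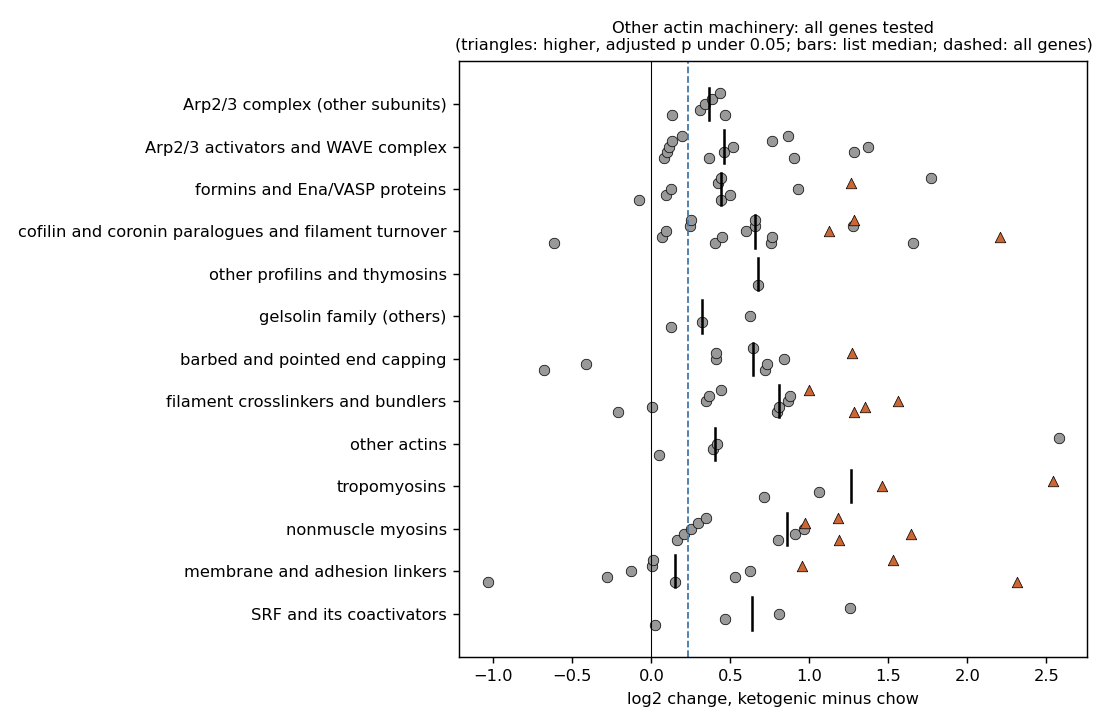
Log2 difference, ketogenic minus chow (horizontal axis), of the 107 tested genes of the wider actin machinery, 1 point per gene, in 13 lists by role. Orange triangles are the 18 genes higher at an adjusted p under 0.05, grey circles did not pass, short bars are list medians, and the dashed line is the median of all genes, 0.235.

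Serum response factor and its coactivators had 0 of 4 genes past the threshold. Srf itself differed by 0.03 (limma adjusted p = 0.962) and its coactivator Mrtfb by 0.46 (adjusted p = 0.25). Of the 90 tested genes of the wider lists with a promoter window, 11 held the CArG box. Among them are Srf, Vcl, Cnn2 and Myl9, each with 1 box printed above. Of those 11, 0 passed the threshold (lowest limma adjusted p = 0.0737, Cnn2), and of the 79 without the box 16 passed. Over all genes, 6.52% passed higher and 0.868% lower. Of the 11, Acta1, Actc1, Myl6 and Fhl2 had chow means under background. So few genes cannot tell a count of 0 from the share over all genes, and a difference by the box was not tested. Vcl differed by 0.53, Cnn2 by 0.79 and Myl9 by 0.91 (adjusted p = 0.246, 0.0737 and 0.118). The medians were a log2 of 0.53 with the box and 0.50 without it. No match in these windows says nothing of boxes elsewhere in a gene.

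Macrophage, pan-leukocyte and stellate cell markers were mostly higher on ketogenic arrays, as the members were, and the lists of other liver cells were mixed. Over all genes tested, 6.52% passed higher and 0.868% lower, with a median log2 of 0.235, and these stand beside every marker count below. Of the macrophage and Kupffer cell markers 9 of 12 passed higher and 0 lower (median log2 1.70). Their summed signal was 901.9 to 1056.9 on chow and 2920.1 to 4639.6 on ketogenic arrays. The lysosomal protein Cd68 rose by 2.71 ± 0.246 (SE, limma adjusted p = 0.000693). Marco, a scavenger receptor, had a chow mean under background and was at least 6.73-fold higher, with overlapping arrays. Its log2 of 3.67 (adjusted p = 0.0447) lost the threshold in 9 of 16 alternatives. All 7 tested pan-leukocyte markers passed higher (median 2.25), with a summed signal of 183.7 to 259.3 on chow and 1088.4 to 1209.7 on ketogenic arrays. They include the adaptor Tyrobp at 2.55 and the surface protein Cd52 at 2.65. Coro1a, Capg and the wider genes Fermt3 and Myo1f, all known from blood cells, stand beside these values, and the part of such cells in them was not tested.

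Other leukocyte markers were sparse. Of the 8 T and NK cell markers on the array 1 was bright enough to test, Cd8a at a log2 of 0.23 (limma adjusted p = 0.738), 0 of 5 B cell markers passed, and 2 of 5 neutrophil markers passed, S100a8 and S100a9, at least 2.51-fold and at least 2.42-fold above a chow level under background. The other 3 tested neutrophil markers had negative differences, and the median log2 of the 5 was -0.07. Platelet markers had 0 of 5. The summed neutrophil list read 77.9 to 108.0 on chow and 98.2 to 133.1 on ketogenic arrays, so its arrays overlapped.

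Stellate cell and fibroblast markers passed higher for 9 of 9 tested (median log2 1.73), with Col3a1 at 2.96 (limma adjusted p = 0.00354). Col1a1 had chow signals of 16.6, 2.8 and 18.4, a mean under background, and was at least 8.52-fold higher. Its log2 was 3.74 (adjusted p = 0.011, lost without ketogenic array 3). The summed signal of the list was 1152.4 to 1428.6 on chow and 3675.3, 3271.2 and 5021.8 on ketogenic arrays. Ketogenic array 3 was highest and array 2 lowest for this sum, as for all 4 Gsn probe sets in the fit, which share 1 RNA. For Capg and the macrophage sum the orders differed. Capg read 68.8, 54.4 and 63.8 on ketogenic arrays 1, 2 and 3, and the macrophage sum 3947.2, 4639.6 and 2920.1. The 3 arrays allow few orders, so a shared order decides nothing. The part of these cells in the Gsn signal was not tested. Of the smooth muscle markers Tagln passed at 1.68 (adjusted p = 0.00415) and Acta2 did not. Endothelial markers had 1 of 9 higher, beside 6.52% of all genes. It was Tek at 1.19 (adjusted p = 0.024, lost when any array other than chow array 1 was left out). Cholangiocyte markers had 0 of 4.

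Hepatocyte markers, which define the labelled tissue, summed to 36071.5 to 38872.3 on chow and 26808.4 to 31200.9 on ketogenic arrays. This fall came largely from Cps1, with means of 5835.6 on chow and 1729.9 on ketogenic arrays, and Tat, with 3088.1 and 769. Alb and Hnf4a differed by a log2 of -0.013 and -0.004, and Apob by 0.557 (limma adjusted p = 0.234). The probe set of Ass1 was dim, at 25.2 ± 1.12 on chow and 19.5 ± 1.85 on ketogenic arrays (SD, n = 3). The difference was negative for 7 of the 8 tested, with a median log2 of -0.17. Of the 8, 2 passed lower and 6 did not pass, where 0.868% of all genes passed lower. The 2 were Cps1 of the urea cycle at -1.82 (limma adjusted p = 0.00925) and Tat, a tyrosine-degrading enzyme, at -2.03 (adjusted p = 0.00793). The erythroid marker Alas2 fell by 1.01 (adjusted p = 0.049) and lost the threshold in 10 of 17 alternatives.

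**Figure D5:**
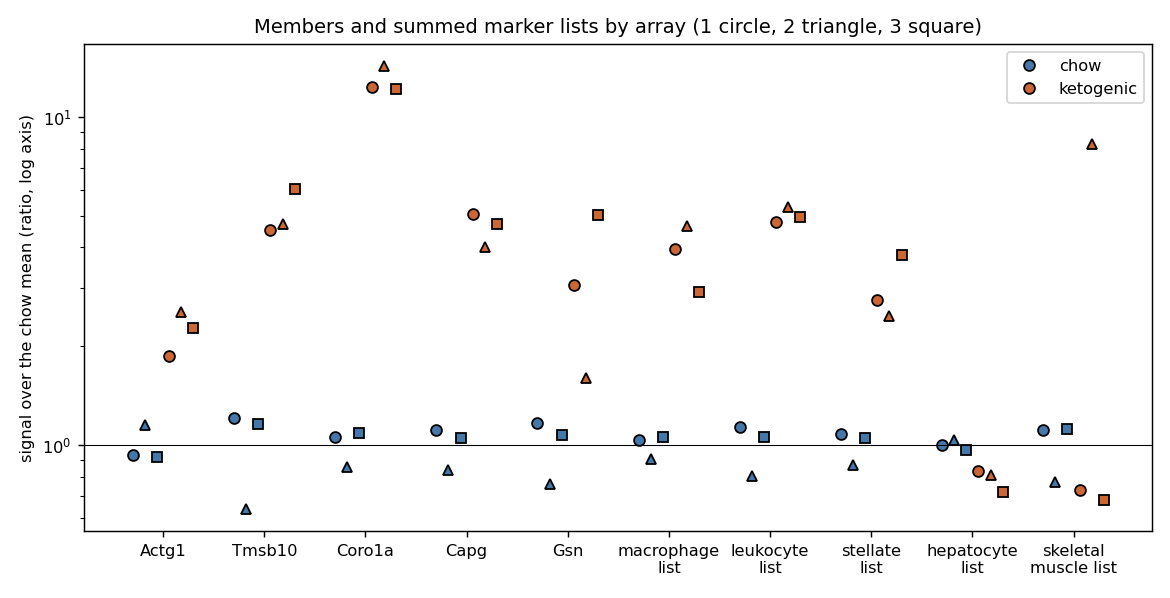
Signal over the chow mean of the same gene or list (vertical log axis, ratio) for 5 actin cytoskeleton genes and for summed marker lists on each array, with circles, triangles and squares for arrays 1, 2 and 3. Actg1, Tmsb10, Coro1a, Capg, Gsn and the macrophage, leukocyte and stellate sums lie above 1 on ketogenic arrays. The hepatocyte sum lies below 1 there, a fall that came largely from Cps1 and Tat. The muscle sum is high on ketogenic array 2 alone. Coro1a was under background on chow, so its ratio is no measured fold.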

How the data were processed

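Liver RNA was read on 6 one-colour arrays (3 per diet). The authors deposited linear intensity values; the submitters' processing notes name GCOS and MAS5, without version or scaling target. The table holds 45101 probe sets. The platform annotation gave 34958 of them 1 symbol, 932 several and 9211 none, and 34754 of those with 1 symbol matched RefSeq (GRCm38.p6).

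Intensities were floored at 1.1 (the table's 10th percentile) and taken to log2. The 64 control probe sets were left out, and probe sets with a mean log2 of at least 3.35, a signal of 10.2, were kept: 22515 probe sets, and 11866 genes read by their brightest probe set. Diets were compared with limma 3.58.1 in R 4.3.3 (two-sided, Benjamini-Hochberg over all features, 4 residual and 5.07 prior degrees of freedom), which was tested on simulated data first. "At least" folds set the bright mean against 10.7, the array average of the 95th percentile over 27 control probe sets for bacterial transcripts, or against the dim signal where that was higher. Fold changes of dim genes on the log2 scale depend on the floor. The filter used the mean over all arrays, so a gene dim on chow could enter the fit through its ketogenic signals. The number of arrays limits precision.

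The members and all gene lists were chosen with earlier results of these data known, and 1 further list is not reported here. Named genes were the up to 3 (wider lists) or 2 (marker lists) with the largest change among those past the threshold, or the brightest tested gene where none passed. Genes named for a promoter box fall outside that rule and were named after their values were seen. So were Ezr, Add3, Nckap1l, Wipf1, Wasf2, Acta1, Acta2, Ass1, Alb, Hnf4a, Apob, Laptm5, Lcp2, Myl12a and Sptan1. Other scalings, floors, filters, priors, probe-set choices and leaving out each array were tried.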

Additional observations from a re-analysis of the deposited data

How the results depend on the processing

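No paired analysis was possible because the labels give no replicate numbers that pair arrays. The as-deposited fit called 877 genes, 18 wider actin genes and 1045 probe sets. These became 3913, 64 and 5123 scaled to the hybridisation controls and 1529, 30 and 2123 with a floor of 16. They were 1438, 29 and 1872 with a trended robust prior, and 256, 3 and 178 with no filter on low signals. The shares of wider actin genes and of all genes were 16.8% and 7.39% as deposited and 59.8% and 33.0% scaled to those controls. With the floor of 16 they were 27.3% and 12.8%, with the trended prior 27.1% and 12.1%, and with no filter 2.24% and 1.41%. The 75th percentile filter gave 28 wider actin genes, 27 higher and 1 lower, or 37.8% of those tested beside 16.4% of all genes. Leaving out 1 array gave 526 to 874 genes, 6 to 18 wider actin genes and 330 to 949 probe sets. The split of all genes, 774 higher and 103 lower, was 917 and 277 at a common median, 676 and 361 at a common trimmed mean and 575 and 327 after quantile normalization, as the median of all genes moved from 0.235 to 0.12, 0.02 and -0.01 (0.60 with hybridisation controls). The cause of these shifts was not tested.

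The members' median of 1.432 was 1.219 at a common trimmed mean, 1.793 with hybridisation controls, 1.151 with the 75th percentile filter, which kept 7 genes, and 1.174 to 1.496 with 1 array left out. Actb turned to -0.124 when its probe sets were averaged, which brings in the lower one. The Actb 3′ to 5′ difference stayed at -0.430 to -0.530. The wider genes that passed under every alternative that tested them were 2, Msn and Tpm1. Over 647 comparisons of named genes, 106 lost the threshold, 4 gained it and 0 changed sign among called values.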
